A study of Mus musculus with 8 samples.

Results

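The NF-kappaB subunits and inhibitors are 10 genes chosen by symbol, among the 34478 genes measured, in 4 murine pancreatic ductal adenocarcinoma (PDAC) cell lines treated with the MEK inhibitor trametinib. They comprise the 5 subunits (Nfkb1, Nfkb2, Rela, Relb and Rel), 4 inhibitors (Nfkbia, Nfkbib, Nfkbie and Tnfaip3) and the kinase Ikbkb. Each member was found once in the table, and 10 of 10 passed the filter of a mean normalized count of at least 10.

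Polyadenylated RNA was sequenced from the primary lines #1, #3, #5 and #10, each with the solvent DMSO and with trametinib (MEKi), which gave 1 library per line and treatment and 8 in all. MEKi was applied for 48 h at the IC50 of each line, so the concentration was set per line, and the values of these doses are not given in the sources used here. All lines carried Ptf1awt/Cre and Trp53loxP/loxP, in which Cre from the Ptf1a locus, active in pancreatic progenitors, deletes Trp53. The lines were grown from pieces of tumors, whether each came from its own mouse is not given in the sources used here, and the controls share all engineered alleles with the treated cells. The comparison asks which RNA levels differ after 48 h of MEK inhibition, within each line.

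NF-kappaB transcription factors are dimers of the 5 Rel-family subunits, which IkappaB proteins hold in the cytoplasm until the IkappaB kinase (IKK) marks these inhibitors for breakdown. In the canonical branch IKK-beta releases dimers such as p50/RelA, and in the non-canonical branch p100 is processed to p52, the partner of RelB. Several genes of the system, among them Nfkbia and Tnfaip3, are known targets of NF-kappaB itself and act as negative feedback, and the pathway is known for inflammatory gene expression in pancreatic tumors. RNA levels do not report the processing, breakdown or nuclear entry of these proteins.

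The consensus binding sequence of NF-kappaB occurs just before the start of several member genes. For each of these genes 1 stretch is shown, because they include known feedback targets of the pathway. Nfkb2, Rel and Tnfaip3 held further matches, which are not marked, among them GGGACACCCC at -125 from the start in Tnfaip3. RefSeq promoters on GRCm38.p6, from 250 bases before to 50 bases after the start, were matched for 7 members. A match to the NF-kappaB consensus, searched on both strands, was found for 5 of these 7 genes (71.4%), namely Nfkb2, Rel, Nfkbia, Nfkbie and Tnfaip3, and for neither Rela nor Nfkbib. Among all 32851 promoters, 4.51% held a match, and 5.14% of the 27025 genes had at least 1. The AP-1 motif TGANTCA, also searched on both strands, was found for 3 of the 7 members (Nfkb2, Nfkbie and Tnfaip3), against 8.97% of all genes. These matches are descriptions of sequence and not measured binding. Sequences run 5′ to 3′ on the gene's strand, with the match in capitals, and the Nfkb2 stretch, which lies in annotated exons of another Nfkb2 transcript and of AC114539.1, is cut to 30 bases.
Nfkbia, chr12:55492648-55492897, minus strand, all 250 bases before the start: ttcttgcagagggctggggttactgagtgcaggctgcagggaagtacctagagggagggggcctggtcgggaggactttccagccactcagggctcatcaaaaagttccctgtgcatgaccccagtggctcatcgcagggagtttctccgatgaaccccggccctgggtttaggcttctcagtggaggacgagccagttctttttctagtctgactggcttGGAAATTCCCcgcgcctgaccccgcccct
Nfkbie, chr17:45555569-45555628, plus strand: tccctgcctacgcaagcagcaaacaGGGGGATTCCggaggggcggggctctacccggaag
Tnfaip3, chr10:19015411-19015447, minus strand: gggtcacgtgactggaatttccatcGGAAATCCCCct
Nfkb2, chr19:46304688-46304717, plus strand: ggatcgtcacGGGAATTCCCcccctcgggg
Rel, chr11:23771027-23771086, minus strand: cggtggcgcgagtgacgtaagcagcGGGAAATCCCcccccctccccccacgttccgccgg

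The libraries held an estimated 29300000 to 45900000 reads, and totals of 30680091 to 36385719 normalized counts after the authors' scaling. All 8 MAPK output genes fell under MEKi, beside 25.6% of all genes, with a median log2 change of -2.04. Dusp6, an ERK phosphatase that follows ERK activity, was at 4992, 5869, 9662 and 7520 in lines #1, #3, #5 and #10 with DMSO and at 638, 1094, 2231 and 1278 with MEKi, a log2 change of -2.51 (SE 0.14, adjusted p = 0.000123). Of the epithelial markers, Krt8, Krt18, Krt19 and Cdh1, chosen after their values were seen, had lowest values over the 8 libraries of 27587, 17761, 26578 and 19630. Sox9 ran from 65.5 to 1246 with a log2 change of -1.49 (adjusted p = 0.0128), and Cldn7 from 11.3 to 963 with -1.96 (adjusted p = 0.00107), whereas Epcam was listed at 0 in both libraries of lines #1, #5 and #10 and at 10.4 and 3.75 in line #3. Of 9 epithelial markers tested, 7 fell (77.8%), beside 25.6% of all genes, and the summed level of the list went from 232139 to 355137 with DMSO to 121278 to 233220 with MEKi. The 10 white blood cell markers in the table summed to 170 to 261 with DMSO and 251 to 523 with MEKi, of which 4 were tested and Csf1r alone rose, beside 27.3% of all genes. Most of the DMSO sum came from Cd68, a macrophage lysosomal protein, at 130 to 228 over the 8 libraries. Ptprc, which marks all white blood cells, was between 4.05 and 17.2, and Cd3e and Lyz2 did not exceed the value of 3 reads in any library. The 12 fibroblast and endothelial markers summed to 120 to 399 with DMSO and 619 to 2076 with MEKi, with Col1a1 and Tek called higher among 7 tested (28.6%, beside 27.3% of all genes) and Lum listed at 0 throughout. The part of these shifts in the results for the NF-kappaB genes was not tested, and in bulk RNA fewer cells of a type and less RNA per cell cannot be told apart.

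Under MEKi 7 of the 10 genes rose and none fell at an adjusted p under 0.05 with limma, with 4 of 5 subunits, 3 of 4 inhibitors and 0 of 1 kinase called higher. Among all 15888 genes tested, 27.3% were called higher and 25.6% lower. No member was lower at an unadjusted p under 0.05 either. The median log2 change was 0.73 over the 10 genes and 0.07 over all genes tested, and each of the 7 genes was higher in 4 of 4 lines. For 2 members, Nfkb1 and Relb, all 4 MEKi libraries lay above all 4 DMSO libraries, which held for 15.1% of all genes, and for 0 members all lay below, which held for 16.2%. The lines differed in baseline, so without the line as a block 3 members (Nfkb1, Relb and Nfkbia) were called higher, against 13.9% of all genes in that fit.

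**Figure D1:**
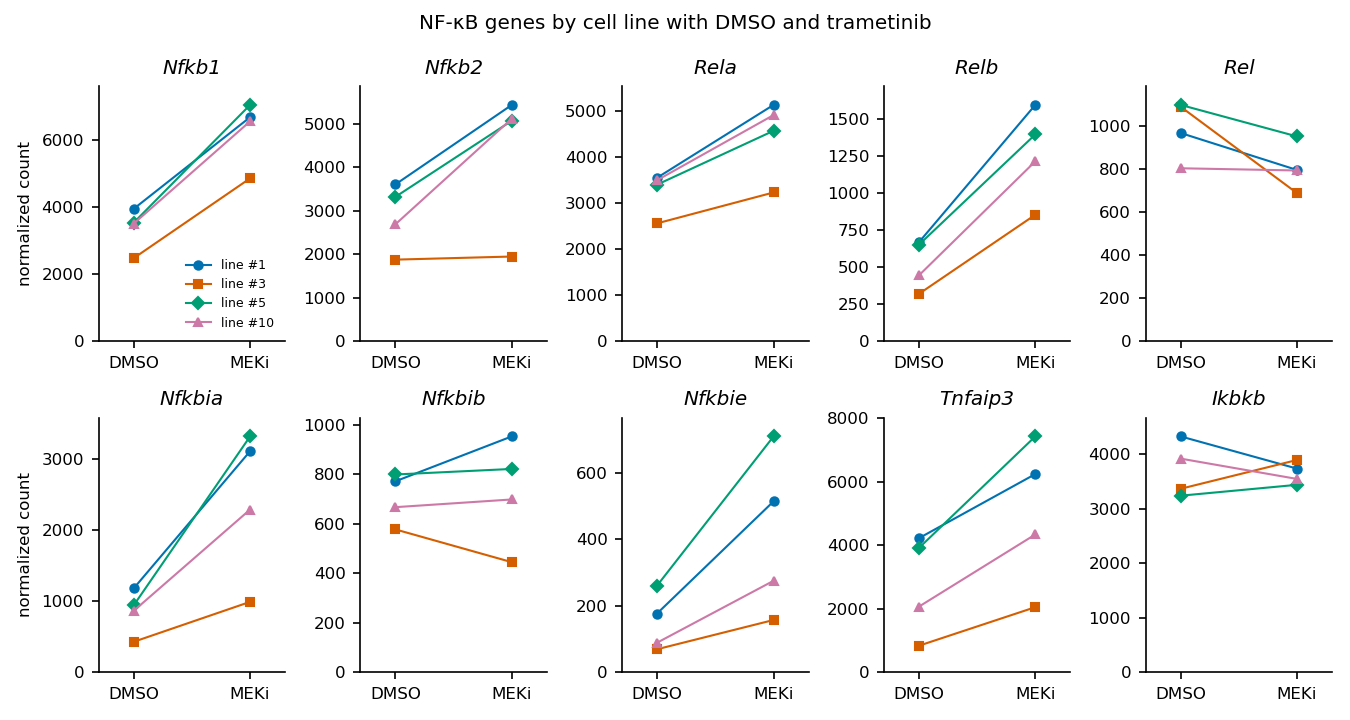
Normalized counts of the 10 genes in the 8 libraries, with 1 panel per gene, the treatment (DMSO or MEKi) on the horizontal axis and a line joining both libraries of each cell line. Every line rises for Nfkbia, Nfkbie, Relb, Tnfaip3, Nfkb1, Rela and Nfkb2, and line #3 is the lowest MEKi library for 9 of 10 genes.

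The subunits RelB and p105/p50 showed the largest rises among the 5 subunits. Relb, the non-canonical subunit that pairs with p52 (chromosome 7, 19606217 to 19629438, minus strand, mm10), had 665, 317, 648 and 441 normalized counts in the DMSO libraries of lines #1, #3, #5 and #10. With MEKi it was at 1593, 851, 1393 and 1212. The lowest MEKi library (851, line #3) stood above the highest DMSO library (665, line #1), and the rise was 2.48-fold (95% interval 2.08 to 2.96, log2 change 1.31, SE 0.11, adjusted p = 0.000335). It ranked at the 89.9th percentile of the changes of all genes tested. For the other members called higher the percentiles were 91.4 (Nfkbia), 91.3 (Nfkbie), 83.9 (Tnfaip3), 82.9 (Nfkb1), 72.1 (Nfkb2) and 68.1 (Rela).

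Nfkb1, which encodes p105 and its product p50 (chromosome 3, 135584655 to 135691547, minus strand), was at 3950, 2474, 3534 and 3507 with DMSO and at 6695, 4865, 7063 and 6572 with MEKi. Again the groups did not overlap. The rise was 1.88-fold (1.64 to 2.15, log2 change 0.91, SE 0.08, adjusted p = 0.000434), and the lines ranged from 1.70-fold in #1 to 2.0-fold in #5.

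Rela, which encodes the transactivating subunit p65 (chromosome 19, 5637483 to 5648130, plus strand), was at 3544, 2554, 3395 and 3491 with DMSO and at 5127, 3225, 4565 and 4906 with MEKi. The MEKi library of line #3 lay within the DMSO range, so the groups overlapped although each line rose. The rise of 1.36-fold (1.20 to 1.55, log2 change 0.45, SE 0.08, adjusted p = 0.00371) was below that of Nfkb1, Relb, Nfkbia, Nfkbie and Tnfaip3 in 4 of 4 lines.

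Nfkb2, which encodes p100 and p52 (chromosome 19, 46304320 to 46312385, plus strand), was at 3606, 1873, 3319 and 2687 with DMSO and at 5441, 1945, 5076 and 5124 with MEKi. Line #3 hardly moved (1.04-fold), while lines #1, #5 and #10 rose 1.51-, 1.53- and 1.91-fold. The rise over the lines was 1.46-fold (1.16 to 1.85, log2 change 0.55, SE 0.14, adjusted p = 0.0167). This call was lost when line #1, #5 or #10 was left out, with adjusted p up to 0.069 (log2 changes 0.42 to 0.53), and kept without #3 (log2 change 0.71). Nfkb2 exons share 531 bases with AC114539.1 and 299 bases with Psd on the opposite strand, out of 4584 exon bases, and whether the authors' counting used strand is not given in the sources used here.

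Rel, which encodes c-Rel, the subunit best known from lymphocytes (chromosome 11, 23736847 to 23770970, minus strand), was the exception among the subunits. It was at 968, 1090, 1099 and 804 with DMSO and at 796, 688, 952 and 793 with MEKi. All 4 lines were lower, from 0.63-fold in #3 to 0.99-fold in #10, and the change over the lines was 0.816-fold (0.661 to 1.01, log2 change -0.29, SE 0.13, adjusted p = 0.0934), which did not pass the threshold. With each library centred on its median it did (log2 change -0.35, adjusted p = 0.0384). The log2 change of Rel was smaller with equal totals (-0.17, adjusted p = 0.311) and without line #3 (-0.17, adjusted p = 0.196).

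Among the inhibitors the 2 IkappaB genes Nfkbia and Nfkbie changed the most. Nfkbia, which encodes IkappaB-alpha, the inhibitor resynthesized as feedback after NF-kappaB activity (chromosome 12, 55489410 to 55492647, minus strand), was at 1178, 430, 940 and 864 with DMSO and at 3106, 991, 3314 and 2287 with MEKi. The MEKi library of line #3 lay within the DMSO range, since that line was also the lowest with DMSO. The lines rose 2.64-, 2.31-, 3.52- and 2.65-fold, and the change was 2.74-fold (2.25 to 3.34, log2 change 1.46, SE 0.12, adjusted p = 0.000335), at the 91.4th percentile of all genes tested.

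Nfkbie, which encodes IkappaB-epsilon (chromosome 17, 45555703 to 45563169, plus strand), was at 177, 69.6, 261 and 89.2 with DMSO and 514, 157, 709 and 275 with MEKi. The lines spanned 3.75-fold with DMSO, and the groups overlapped through line #3. The rise of 2.71-fold (2.11 to 3.47, log2 change 1.44, SE 0.15, adjusted p = 0.00064) stood beside 2.74-fold for Nfkbia, and each of these genes had the larger change in 2 of 4 lines.

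Tnfaip3, which encodes A20, an ubiquitin-editing enzyme that shuts off signaling upstream of IKK (chromosome 10, 19000910 to 19015657, minus strand), was at 4220, 839, 3911 and 2067 with DMSO and at 6239, 2052, 7425 and 4339 with MEKi. Its DMSO levels spread over 5.03-fold, the widest among the members, and the groups overlapped through the MEKi library of line #3. The rise was 1.95-fold (1.58 to 2.40, log2 change 0.96, SE 0.13, adjusted p = 0.00125), from 1.48-fold in line #1 to 2.45-fold in line #3.

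Nfkbib, which encodes IkappaB-beta (chromosome 7, 28758251 to 28767512, minus strand), was at 771, 577, 799 and 667 with DMSO and at 953, 445, 821 and 698 with MEKi. Lines #1, #5 and #10 were higher and line #3 lower, and the change was 1.01-fold (0.806 to 1.26, adjusted p = 0.961). Its exons share 314 bases with Ccer2 and 42 with Sirt2 on the opposite strand, out of 2169.

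Ikbkb, which encodes IKK-beta, the canonical kinase of IkappaB proteins (chromosome 8, 22659212 to 22706589, minus strand), was at 4332, 3370, 3243 and 3924 with DMSO and at 3740, 3899, 3443 and 3551 with MEKi. It was higher in lines #3 and #5 and lower in #1 and #10, and the change was 0.990-fold (0.840 to 1.17, adjusted p = 0.912). For both genes the sign of the fitted change depended on the scaling of the libraries, Nfkbib becoming negative with quantile normalization (-0.03) and with centring (-0.05), and Ikbkb positive with equal totals (0.11) and quantile normalization (0.11).

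**Figure D2:**
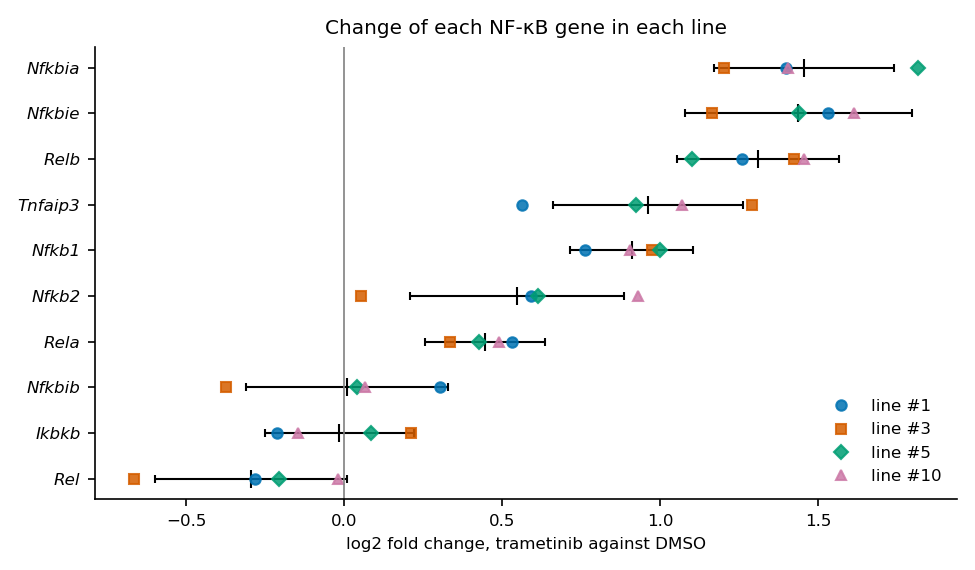
Log2 change of each gene, MEKi against DMSO, on the horizontal axis, with the 4 cell lines as points and the limma estimate (vertical tick) with its 95% interval (bar). The intervals of 7 genes lie above 0, from Rela and Nfkb2 near 0.5 to Nfkbia and Nfkbie near 1.4, and those of Rel, Nfkbib and Ikbkb include 0.

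Some pairs of genes kept the same order of change in every line and others did not. Nfkbia and Nfkbie each rose more than Nfkb1, Nfkb2 and Rela in 4 of 4 lines, and Relb rose more than Nfkb1, Nfkb2, Rela and Tnfaip3 in 4 of 4. Nfkbia rose more than Relb in 2 of 4 lines and Nfkbie in 3 of 4, so these 3 genes had no common order. Nfkbia and Nfkbie each rose more than Tnfaip3 in 3 of 4 lines, Nfkb1 more than Nfkb2 in 3 of 4 and Nfkb1 more than Tnfaip3 in 2 of 4. These are counts over 4 lines without a test.

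Line #3 stood apart. It was the lowest of the 4 lines with DMSO for 8 of 10 members, against 30.7% of all genes tested, and with MEKi for 9 of 10, against 37.5%. The members do not vary independently between lines, so these shares are a description.

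Levels were compared between genes per kilobase of the principal transcript of GENCODE M21. With DMSO the order was Rela (1195 normalized counts per kilobase, mean of 4 lines), Ikbkb (1038), Nfkb2 (914), Nfkb1 (818), Tnfaip3 (624), Nfkbia (541), Nfkbib (341), Relb (234), Rel (133) and Nfkbie (61.2). All neighbours in this order had overlapping ranges over the 4 lines except Rel and Nfkbie. With MEKi Rela (1641) was followed by Nfkbia (1536), Nfkb1 (1530), Nfkb2 (1400), Tnfaip3 (1134), Ikbkb (1022), Relb (572), Nfkbib (354), Nfkbie (170) and Rel (108), and Ikbkb and Relb were the single neighbours whose ranges did not overlap. Ikbkb thus passed from rank 2 to rank 6 at nearly the same mean level, and Rel from 9 to 10. The order depends on the length used. With the merged exons of all transcripts Ikbkb ranked 7 with DMSO and 8 with MEKi, and with MEKi Nfkbia ranked 1 and Rela 2.

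**Figure D3:**
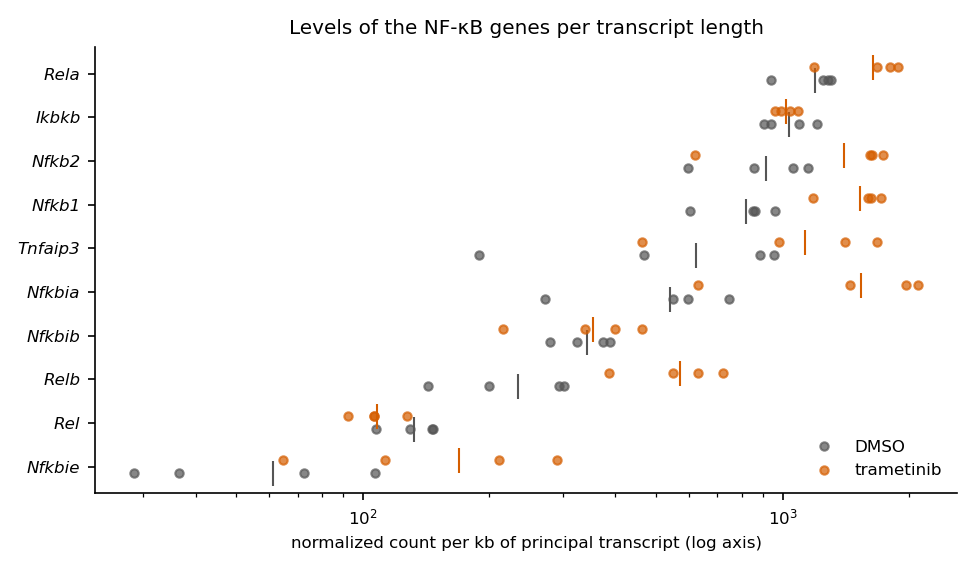
Normalized counts per kilobase of principal transcript on a log axis for the 10 genes, with 1 point per library and a vertical tick at the mean of each group, DMSO in grey and trametinib (MEKi) in orange. Rela is highest by mean in both groups, Nfkbia moves from 541 to 1536, and Rel and Nfkbie are the lowest genes with MEKi.

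Ratios within a library, chosen after the values were seen, compare an inhibitor with a subunit, 2 inhibitors and 2 subunits. Nfkbia per Rela was 0.572, 0.290, 0.477 and 0.426 with DMSO in lines #1, #3, #5 and #10 and 1.04, 0.529, 1.25 and 0.802 with MEKi, higher in 4 of 4 lines. Nfkbia per Nfkbib was 2.0, 0.972, 1.54 and 1.69 with DMSO and 4.26, 2.91, 5.27 and 4.28 with MEKi. Relb per Rel was 2.32, 0.982, 1.99 and 1.86 with DMSO and 6.77, 4.18, 4.95 and 5.16 with MEKi. For the latter 2 ratios the MEKi libraries lay above all DMSO libraries. This separation comes from the same values as the changes of the single genes and carries no test. All are ratios of RNA levels per kilobase and not of protein.

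Over 5 lists of 112 genes without the members, 92 genes were tested, of which 36 rose (39.1%) and 13 fell (14.1%), beside 27.3% and 25.6% of all genes, with a median log2 change of 0.27. The higher count was 25 without line #1, 25 without line #5 and 17 without the block, in fits that called 21.2%, 21.6% and 13.9% of all genes higher. The lower count was 4 without the block, beside 14.8% of all genes.

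Among the 26 IKK and adaptor genes 8 rose (30.8%) and 2 fell (7.69%), beside 27.3% and 25.6% of all genes. The largest rises were those of Traf5, an adaptor of TNF receptors, with a log2 change of 1.41 (SE 0.28, adjusted p = 0.00605), and Birc3, a ubiquitin ligase of TNF receptor complexes, with 1.00 (SE 0.15, adjusted p = 0.00203). The genes that fell were Myd88, the adaptor of Toll-like and IL-1 receptors, by 0.43 on the log2 scale (SE 0.14, adjusted p = 0.0434), and the kinase Irak1 by 0.42 (SE 0.08, adjusted p = 0.00504). Chosen after their values were seen, the other members of the IKK complex were Chuk, with a log2 change of 0.09 (adjusted p = 0.384), and Ikbkg, with 0.45 (adjusted p = 0.0107). The count of rises was 4 without line #1, 4 without line #5, 13 with equal totals and 2 without the block, in fits that called 21.2%, 21.6%, 33.5% and 13.9% of all genes higher. The count of falls was 1 without line #1, #5 or #10, with equal totals, with no filter and with eBayes without trend, where 21.3%, 20.8%, 20.8%, 20.6%, 12% and 23.2% of all genes were called lower. It was 0 without the block, beside 14.8% of all genes.

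Of 15 other IkappaB and brake genes 7 rose (46.7%) and 3 fell, beside 27.3% and 25.6% of all genes. Tnip2, which binds A20, rose by a log2 change of 1.41 (SE 0.13, adjusted p = 0.000516), and Tnip3 by 1.24 (SE 0.33, adjusted p = 0.0189) from DMSO levels that ran from 3.64 in line #10 to 525 in line #5. Nfkbiz, a nuclear IkappaB protein, fell by 0.71 (SE 0.12, adjusted p = 0.00328) and Commd1, which promotes breakdown of RelA, by 0.64 (SE 0.15, adjusted p = 0.0105). The count of rises was 4 without line #1 and 4 without the block, where 21.2% and 13.9% of all genes were called higher. The count of falls was 1 without the block, where 14.8% of all genes were called lower.

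Of 16 receptors tested, 8 rose and 1 fell, beside 27.3% and 25.6% of all genes. Without the block 3 were higher and 0 lower, beside 13.9% and 14.8% of all genes. Tlr5, the receptor for flagellin, went from 4.48, 0, 6.33 and 2.77 (line #3 listed at 0) to 19.6, 41.2, 48.8 and 78.9, a fitted log2 change of 3.62 that depends on the pseudocount. Tlr6 rose by 2.56 (SE 0.44, adjusted p = 0.00323), while the IL-1 receptor Il1r1 fell by 0.81 (SE 0.15, adjusted p = 0.00384).

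Of 14 listed ligands 12 were found by symbol and 4 passed the filter on low values, of which 2 rose and 0 fell, beside 27.3% and 25.6% of all genes. Il18 rose from 25, 65.7, 13.9 and 4.67 to 383, 533, 239 and 140 (log2 change 3.88, SE 0.29, adjusted p = 0.000293), and Tnfsf12, which encodes TWEAK, rose by 0.88 (SE 0.15, adjusted p = 0.00345). Tnf was at most 5.92 and Il1b at most 0.957 in any library, both chosen after their values were seen.

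Of 31 known target genes tested, 11 rose (35.5%) and 7 fell (22.6%), beside 27.3% and 25.6% of all genes. Csf1, the macrophage growth factor, rose from 1533, 461, 839 and 1855 to 13649, 4326, 13940 and 12935 (log2 change 3.31, SE 0.19, adjusted p = 0.000146), and Ccl2, a monocyte chemokine, by 3.14 (SE 0.42, adjusted p = 0.00132). Csf2, which encodes GM-CSF, fell from 201, 35.9, 142 and 155 to 12.6, 1.89, 14.5 and 12.5 (log2 change -3.57, SE 0.26, adjusted p = 0.000258), and Tnfaip2 fell by 2.55 (SE 0.18, adjusted p = 0.000245). The count of rises was 7 without line #1 and 7 without line #5, in fits that called 21.2% and 21.6% of all genes higher. Without the block 6 targets were higher and 3 lower, beside 13.9% and 14.8% of all genes.

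**Figure D4:**
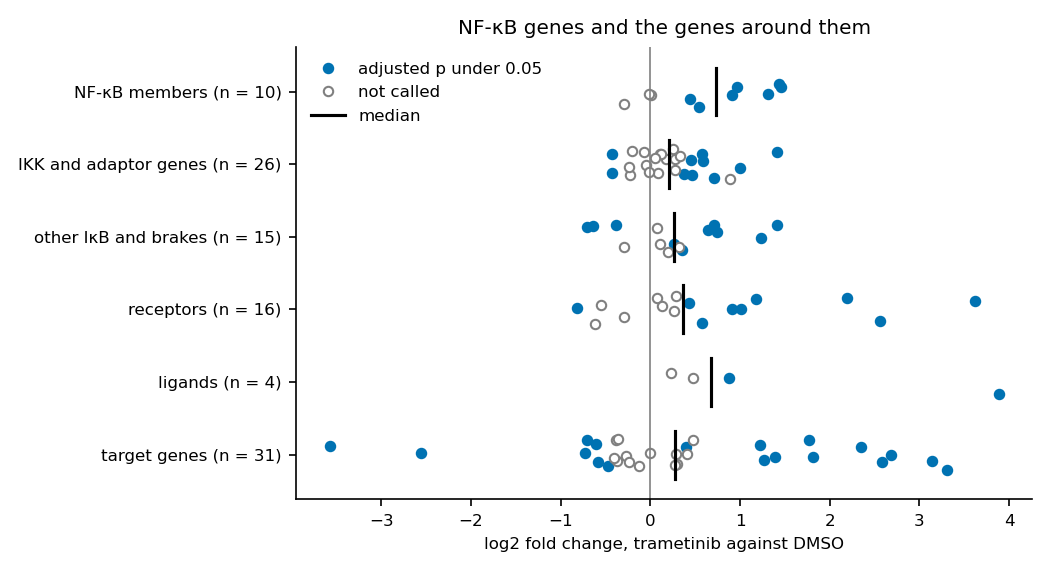
Log2 change, MEKi against DMSO, for each of the 10 NF-kappaB genes and each tested gene of the 5 pathway lists, with filled points for an adjusted p under 0.05, open points for genes not called and a bar at each list's median. The members have a median of 0.73 and the lists 0.21 to 0.68, against 0.07 over all genes.

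The genes most like Nfkbia, by Pearson correlation of log2(value + 1) over the 8 libraries, were Gadd45g (r = 0.991), Tgm2 (0.988) and Mical1 (0.986). The log2 changes were 1.81, 2.72 and 1.77. The libraries fall into both treatments, so these values describe a shared difference between treatments and lines and carry no test. Tgm2, a transglutaminase, went from 1218, 215, 935 and 1041 to 7184, 1569, 8333 and 5082, with line #3 lowest in both groups as for Nfkbia.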

How the data were processed

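RNA was extracted from 4 cell lines per treatment and sequenced from stranded mRNA libraries. The authors deposited 1 table of normalized counts per gene symbol, a signal scaled by the authors between libraries; the submitters' processing notes name CASAVA 2.17, Salmon 0.12, DESeq2 1.18 and mm10, without an order or role. All 8 columns were used, with 0 columns not used. Whole reads could not be recovered, since 29.8 to 57.4% of values under 20 estimated reads came out whole within 0.01, so no count test was made.

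Values were tested as log2(value + 1), a scale that understates changes of low genes, with limma 3.58.1 in R 4.3.3 (trend, cell line as block) over 15888 genes with a mean of at least 10, and p-values were adjusted by Benjamini-Hochberg over all of them with a threshold of 0.05. The fit was run on simulated data with a fold of 2 either way, the same in every line. It recovered 172 of 196 changed genes with 1 false call among 15363 genes tested. The simulation held few changed genes and no response particular to a line, so it does not show the error rate in these data. Tables and plots used Python 3.11.15, pandas 2.3.3, numpy 2.4.6 and matplotlib 3.10.9. Libraries are paired because their number names the cell line, and deviations of a line's libraries from the treatment means correlated at 0.63 to 0.72. With 1 library per line and treatment, p-values rest on the spread of the treatment change between lines, moderated over genes. Repeats within a line were not available. Positions and lengths are from GENCODE M21 on GRCm38, the build mm10, and promoters from RefSeq.

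The members, lists and alternatives were chosen with earlier results of these data known. Named genes were the 10 members and the 2 largest rises and 2 largest falls called in each list. Also named were the 3 genes most like the called member that changed most, and Dusp6. Other genes given with their levels, among them Epcam, Cd68, Ptprc, Cd3e, Lyz2 and Lum, were chosen after their values were seen. Alternatives were pseudocounts of 0.1 and 5, equal totals, quantile normalization, median centring, no filter, a filter at 50 and no block. Further ones were eBayes without trend, eBayes with trend and robust estimation, and each line left out. A floor of 3 reads was 2.33 to 3.72 normalized counts. One allele of the mouse model and one marker gene are not reported here.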

Additional observations from a re-analysis of the deposited data

Results flagged for a closer look

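In groups of 4 libraries, 1 value can lie far from the other 3 in relation to the range of the group. The 10 genes were looked at in both treatments and in their change, 30 groups in all, of which 2 held such a value, and chance gives about 1.5. Both were of line #3. Nfkb2 with MEKi was at 1945 in line #3, against 5076 to 5441 in the other 3 lines. Rela with DMSO was at 2554 in line #3, against 3395 to 3544 in the others.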

How the results depend on the processing

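The members called higher numbered 7 under each alternative but 2 kinds. They were 3 without the replicate block (Nfkb1, adjusted p = 0.00839; Relb, 0.0112; Nfkbia, 0.0328) and 6 to 7 when a line was left out. Nfkb2, Rela, Nfkbie and Tnfaip3 lost the call without the replicate block (adjusted p = 0.27, 0.098, 0.082 and 0.23), where lines of different baseline enter the error. Pathway genes without that block were 17 higher and 4 lower, beside 13.9% and 14.8% of all genes. Members called lower were 1 (Rel) with median centring, where 28.3% of all genes were called lower. Nfkbib turned from 0.0088 to -0.027 with quantile normalization, to -0.050 with centring and to between -0.090 and 0.14 with a line left out; Ikbkb turned from -0.01 to 0.11 with equal totals, to 0.11 with quantile normalization and to between -0.090 and 0.051 with a line left out; the cause was not tested. Equal totals and quantile normalization moved the median change of all genes by 0.13 and -0.10, and the share called higher and lower to 33.5% and 20.6% and to 23.8% and 26.6%. Of 140 counts of a single list, 20 moved by over 1.5 times. Depth limits genes near the floor, such as Tlr5.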
